A study of Mus musculus with 4 samples.

Results

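Heat shock proteins and their co-chaperones were followed through T cells of the 2 brain barrier tissues sampled in the study, the meninges and the choroid plexus. The set held 10 genes of the 31053 counted: the stress-inducible HSP70 genes Hspa1a and Hspa1b, the constitutive HSP70 gene Hspa8, the endoplasmic reticulum HSP70 gene Hspa5, the cytosolic HSP90 genes Hsp90aa1 and Hsp90ab1, the HSP70 co-chaperones Dnajb1, Dnaja1 and Hsph1, and the mitochondrial chaperonin gene Hspd1. They were taken by name, and all 10 were in the files.

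CD4 and CD8 T cells had been sorted by FACS from female C57BL/6 mice, 10 weeks old (young) or 18 months old (aged), and measured with 10x 5′ single-cell RNA-seq. The 4 groups were the meninges of young mice, the meninges of aged mice and the choroid plexus of each age, with no transgene or treatment named for any of them. Each group was 1 library pooled from 5 mice. Every comparison was therefore between single libraries, with no p-value, and the intervals given cover counting error and not the spread between mice. They treat UMIs as independent, so they are too narrow where single cells hold many UMIs of a gene.

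After filtering, the libraries held 605 to 1408 T cells, defined as cells with a UMI (a unique molecular identifier, 1 per captured transcript) of Cd3d, Cd3e or Cd3g, with medians of 2312.5 to 3198 UMIs per cell. T cells with Cd4 UMIs but no Cd8a or Cd8b1 UMI were taken as CD4 (160 to 362 per library), and those with the reverse as CD8 (160 to 473). T cells with no UMI of these genes formed a separate class (269 to 735), called neither, in which CD4 or CD8 cells whose co-receptor transcript was not captured cannot be told apart from cells lacking it. Levels are CPM, the UMIs of a gene summed over a class and scaled to a fixed total of all genes. The choice of summed UMIs means that more cells using a gene and more transcripts in each cell cannot be told apart. B cell markers had a UMI in 14.6 to 51.2% of the cells of a class, and myeloid markers in 0 to 2.76%.

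HSP70 proteins bind unfolded stretches of other proteins and hold them after ATP hydrolysis, which J-domain proteins such as DNAJB1 and DNAJA1 stimulate. Nucleotide exchange factors such as HSPH1 (HSP110) then reset the cycle. HSP90 acts later, on nearly folded clients that include kinases and steroid receptors, and HSPA5 and HSPD1 do related work in the endoplasmic reticulum and the mitochondrial matrix. Heat shock factor 1 raises HSPA1A, HSPA1B, DNAJB1, HSPH1 and HSP90AA1 within minutes of heat or protein damage, whereas HSPA8 and HSP90AB1 are made in unstressed cells. T cells also make more chaperones when they are activated, and tissue digestion at 37 °C can raise stress genes. The enzyme digestion of these tissues took 20 minutes at that temperature.

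Hspa1a (ENSMUSG00000091971) and Hspa1b (ENSMUSG00000090877) lay side by side on the minus strand of chromosome 17 in the GENCODE vM21 annotation of GRCm38, at chr17:34969190-34972156 and chr17:34956436-34959238. Their coding sequences of 1926 and 1929 bases were 99.4% identical over the 1929 columns of an alignment, and 74.6% of the first 500 windows of 50 bases in the transcript occurred in both. A 5′ read in a shared stretch cannot be assigned to one of them. Their sum is given beside their own values, but it does not recover reads that were left out of both. How many such reads there were was not tested. The other genes were at chr9:40800984-40810087 (Hspa8), chr2:34771970-34777547 (Hspa5), chr12:110690605-110702728 (Hsp90aa1), chr17:45567775-45573271 (Hsp90ab1), chr8:83608193-83612653 (Dnajb1), chr4:40722150-40737149 (Dnaja1), chr5:149614287-149636376 (Hsph1) and chr1:55077835-55088243 (Hspd1). Hspa1a overlapped the opposite-strand gene Gm20481, Hspd1 overlapped Hspe1, and Dnaja1 overlapped Smu1 and Gm6297.

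RefSeq promoter windows on GRCm38.p6, from 250 bases before to 50 after a start, were at hand for 7 of the 10 genes (12 windows, none for Hspa8, Hsp90aa1 or Hsp90ab1). The windows were searched on both strands for the heat shock element, the binding motif of heat shock factor 1, written as GAA, any pair of bases, TTC, any pair of bases, GAA, or the inverse order TTC, GAA, TTC with the same spacing. Windows of Hsph1 and Hspd1 held it, as did those of 0.662% of the 27025 genes with a window (32851 windows in all). In Hspd1 it occurred 2 times, overlapping, at 144 to 127 bases before the start, within the site printed below. In Hsph1 it lay after the start, outside the printed bases. The shorter form of 2 units, GAA and TTC in either order with a pair of bases between, was searched after the longer form was seen to be missing from Hspa1a and Hspa1b. It occurred in 5 of the 7 genes (Hspa1a, Hspa1b, Hsph1, Hspd1 and Dnaja1) and in 17.0% of all genes with a window. The endoplasmic reticulum stress element (CCAAT, any 9 bases, CCACG) occurred in Hspa5 and in 0.137% of those genes. Neither window of Dnajb1 held any of the 3 motifs. The sequences are shown with the motif letters in capitals and 5 bases on each side of a site. Starts are those of the RefSeq windows. The printed sites of Hspd1, Hsph1, Dnaja1 and Hspa5 lie inside the GENCODE spans of these genes, after the annotated 5′ end. The Hspd1 window directly before its GENCODE 5′ end held none of the motifs. A Dnajb1 window overlapped an exon of Dnajb1 itself in the bases before its start.

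The 250 bases before the start of Hspa1a (minus strand, chr17:34972157-34972406) are 98.8% identical to those of Hspa1b and hold the short form at 104 to 97 bases before the start in both genes.
Hspa1a upstream: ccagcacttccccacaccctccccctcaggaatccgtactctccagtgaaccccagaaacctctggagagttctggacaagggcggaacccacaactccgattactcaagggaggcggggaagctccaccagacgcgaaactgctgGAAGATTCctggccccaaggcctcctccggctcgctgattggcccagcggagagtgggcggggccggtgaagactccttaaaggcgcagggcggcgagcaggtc
Hspd1 site, with 3 overlapping short forms (minus strand, chr1:55088054-55088081): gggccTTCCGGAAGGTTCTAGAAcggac
Hsph1 site, short form (minus strand, chr5:149636357-149636374): aatctTTCTCGAAggctc
Dnaja1 site, short form (plus strand, chr4:40722339-40722356): ctctaGAAAATTCtacga
Hspa5 site, endoplasmic reticulum stress element (plus strand, chr2:34772020-34772048): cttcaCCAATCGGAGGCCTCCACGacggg

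The choroid plexus was compared with the meninges at each age, to see whether the 2 barriers differ. Heat shock genes were lower in choroid plexus T cells than in meningeal T cells throughout. Of 60 values (10 genes, 3 classes, both ages), 57 were lower in the choroid plexus. Of these, 48 had a 95% counting interval that excluded no difference, and the 3 higher values had intervals that included it. Over all genes tested, 59.6 to 66.0% were lower in young choroid plexus and 39.2 to 56.1% in aged choroid plexus. The 10 genes together summed to 4500 to 4842 CPM in the classes of young meninges and to 2769 to 2905 CPM in young choroid plexus. In the aged mice the sums were 4045 to 4513 CPM in meninges and 3140 to 3232 CPM in choroid plexus. No choroid plexus group reached the lowest meningeal group at either age. The classes of a library are not independent, and the share of all genes that separate by tissue is not given here, for this sum or for the genes below.

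**Figure D1:**
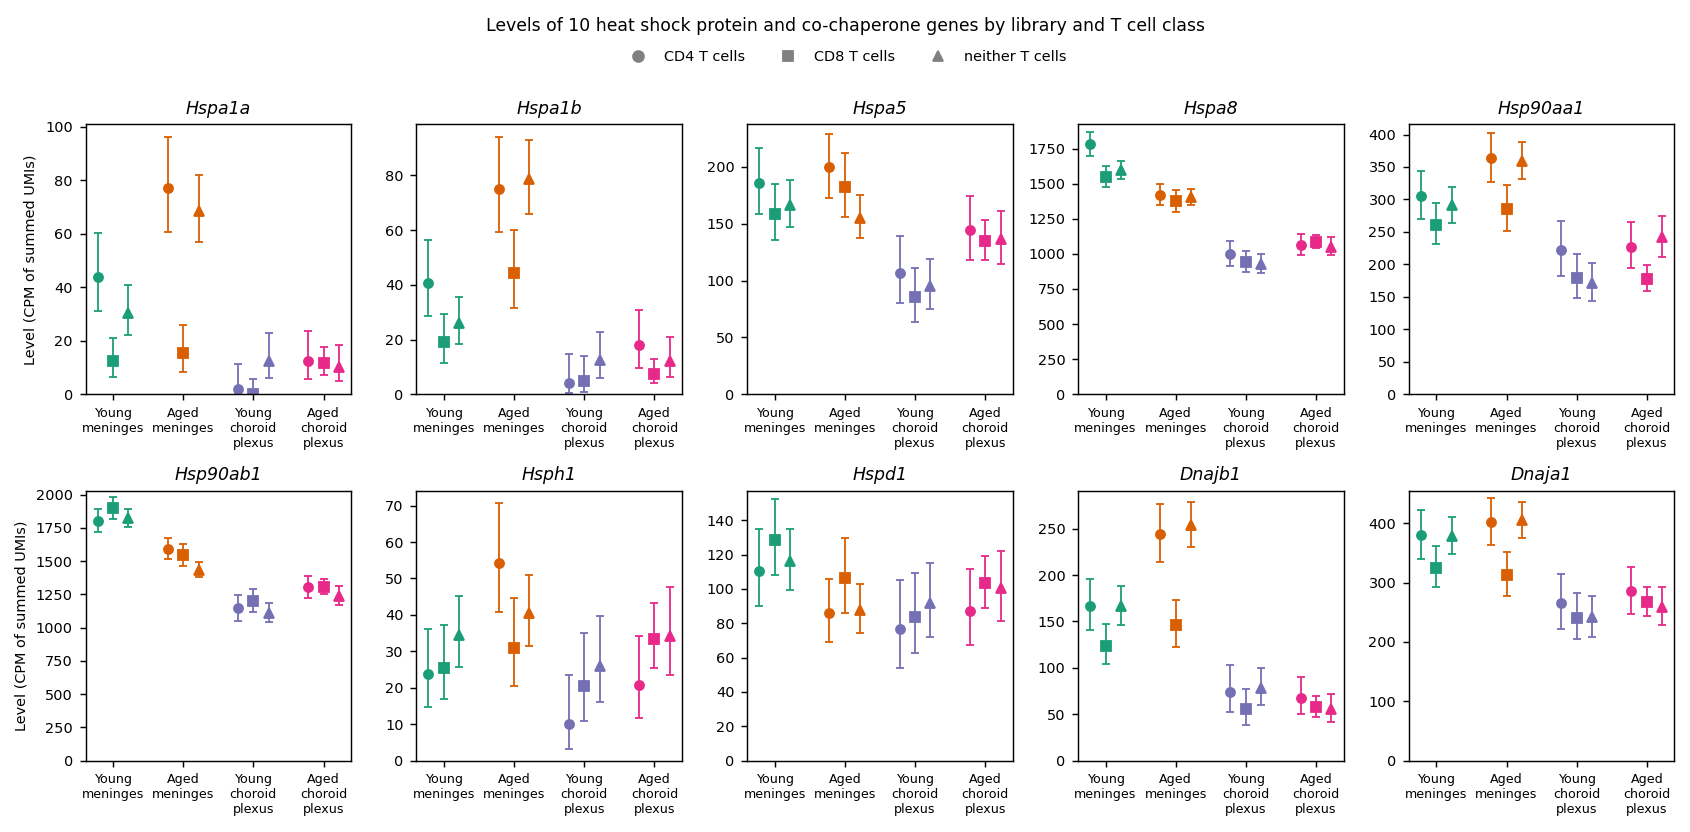
Level of each gene in CPM of summed UMIs (linear axes from 0, each gene on its own scale) in the 4 libraries, with a circle for CD4, a square for CD8 and a triangle for neither T cells and exact 95% Poisson intervals as bars. Dnajb1 lies between 124 and 254 CPM in all 6 meningeal groups and between 55.1 and 78.1 CPM in all 6 choroid plexus groups, whereas the Hspd1 intervals of both tissues overlap.

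A gene was called past 2-fold when the log2 ratio of (CPM + 10) was at least 1 in size and the higher group held at least 20 UMIs. In CD4 T cells, 3 of the 10 genes were past 2-fold lower in young choroid plexus (3.36% of all genes tested were) and 4 of 10 in aged choroid plexus (2.02%). In CD8 T cells these counts were 1 (1.80% of all genes) in young and 2 (1.02%) in aged mice, with 9 genes tested each time. In the neither class they were 1 (1.74%) and 3 (1.32%). No gene of the set was past 2-fold higher in the choroid plexus. The median log2 ratio of the set was -0.75, -0.68 and -0.72 in young CD4, CD8 and neither T cells and -0.57, -0.29 and -0.48 in the aged, against -0.14, -0.07 and -0.10 and -0.04, 0.07 and -0.04 over all genes tested.

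**Figure D2:**
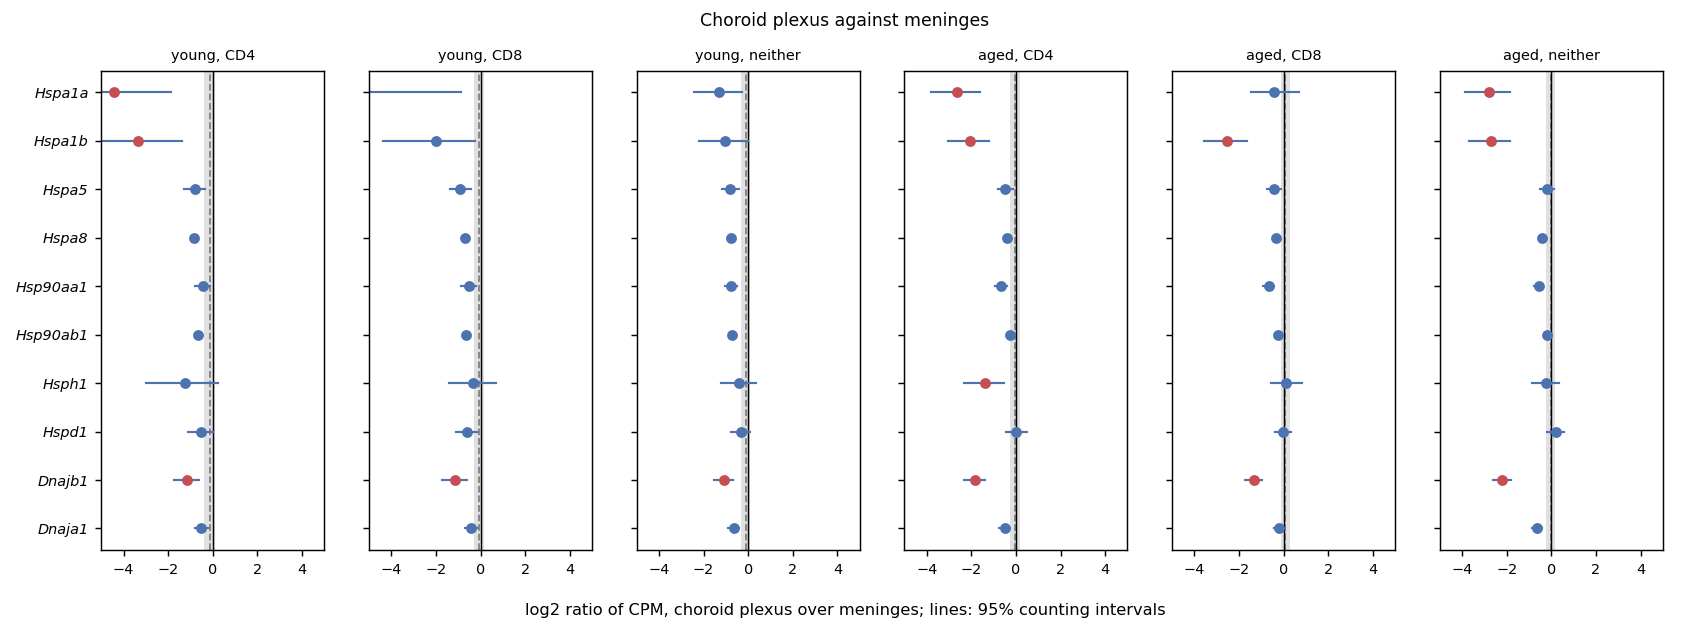
Log2 ratio of CPM, choroid plexus over meninges, for each gene in the 6 pairs of groups, with 95% counting intervals that stop at the edge of the axis, points in red where the gene was past 2-fold and no point where a group was at 0. The dashed line and grey band are the median and the interquartile range of the log2 ratios of (CPM + 10) of all genes tested, and Dnajb1 lies left of the band in all 6 panels.

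Dnajb1, the J-domain protein that delivers unfolded clients to inducible HSP70, was past 2-fold lower in all 6 pairs. In young meninges it was at 167 CPM in CD4, 124 CPM in CD8 and 167 CPM in neither T cells, and in young choroid plexus at 74.5, 55.2 and 78.1 CPM. In aged meninges it was at 244, 146 and 254 CPM, and in aged choroid plexus at 67.9, 57.6 and 55.1 CPM. The highest choroid plexus level was below the lowest meningeal level, among groups that share libraries. The log2 ratios were -1.07, -1.04 and -1.004 in young CD4, CD8 and neither T cells and -1.71, -1.20 and -2.02 in the aged, and without the added 10 CPM the 95% counting intervals ran from -1.73 to -0.64, -1.75 to -0.62, -1.52 to -0.69, -2.32 to -1.40, -1.73 to -0.95 and -2.64 to -1.80. Among genes with at least 100 CPM in 1 of the groups, 1.05 to 1.90% had a lower ratio than Dnajb1. Over the 13 alternative settings that give a ratio of their own, the young ratios ran from -1.67 to -0.58 and the aged ones from -2.18 to -1.09, so the young calls depend on the setting while the direction held in each.

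The share of cells with a Dnajb1 UMI showed the same order after each cell was thinned to 1000 UMIs. It was 12.2 to 17.8% in the young and 15.3 to 17.9% in the aged meningeal classes, and 3.82 to 5.99% and 5.80 to 7.42% in the choroid plexus classes. In young CD4 T cells it was 17.8% (exact 95% interval 13.3 to 23.1, 253 cells) in meninges and 5.66% (2.62 to 10.5, 159 cells) in choroid plexus, with unthinned shares of 38.6 and 18.8%. Every cell type uses these genes, so no class of cells could set a background share for free RNA.

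Hspa1a and Hspa1b are neighbouring genes that both encode inducible HSP70. Their sum was 84.6, 31.2 and 56.4 CPM in young meningeal CD4, CD8 and neither T cells (75, 33 and 85 UMIs) and 6.04, 4.73 and 24.8 CPM in young choroid plexus (3, 3 and 20 UMIs). In the aged mice it was 152, 59.7 and 147 CPM in meninges (154, 54 and 255 UMIs) and 30.5, 19.0 and 22.0 CPM in choroid plexus (22, 33 and 22 UMIs). The log2 ratio of the sum, choroid plexus over meninges, was -2.56, -1.48 and -0.93 in the young and -2.00, -1.26 and -2.29 in the aged, and all 6 intervals lay below 0. In meningeal CD4 T cells 1 cell held 10 of the 75 young UMIs and 1 cell 16 of the 154 aged UMIs. The intervals leave out such clustering. Hspa1a had 0 UMIs in young choroid plexus CD8 T cells. Set against the limit of 3 UMIs for that library (4.73 CPM), it was 2.60-fold higher in young meningeal CD8 T cells (13 UMIs). This value leaves out the counting error of the 13 UMIs. In young CD4 T cells the single Hspa1a UMI and the 2 Hspa1b UMIs of the choroid plexus gave intervals too wide to set a size for either gene, with Hspa1b from -6.43 to -1.38.

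Hspa8, the constitutive HSP70 gene, was at 1782, 1549 and 1599 CPM in young meningeal CD4, CD8 and neither T cells and at 998, 944 and 929.6 CPM in young choroid plexus. In the aged mice it was at 1419, 1377 and 1402 CPM in meninges and 1065, 1088 and 1052 CPM in choroid plexus. All choroid plexus levels were below all meningeal levels, among groups that share libraries. The log2 ratios ran from -0.83 to -0.34, and all 6 intervals lay below 0.

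Hsp90ab1, the constitutive HSP90 gene, gave 1803, 1897 and 1822 CPM in young meninges and 1145, 1202 and 1111 CPM in young choroid plexus, in the same order of classes. Aged meninges gave 1593, 1546 and 1436 CPM and aged choroid plexus 1303, 1307 and 1239 CPM. Its log2 ratios were -0.65, -0.65 and -0.71 in the young and -0.29, -0.24 and -0.21 in the aged. The tissue gap in the aged mice was smaller for both Hspa8 and Hsp90ab1, and this difference between ages was not tested.

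Hsp90aa1, the HSP90 gene that heat raises, was lower in the choroid plexus in all 6 pairs (log2 -0.73 to -0.44), with meningeal levels of 261 to 305 CPM (young) and 285 to 363 CPM (aged) and choroid plexus levels of 171 to 221 and 178 to 242 CPM. Dnaja1, a J-domain partner of HSPA8, was also lower in all 6 (log2 -0.63 to -0.22), with 313 to 405 CPM over the 6 meningeal groups and 241 to 285 CPM over the 6 choroid plexus groups. For both genes all 6 intervals lay below 0 and none of the ratios was past 2-fold.

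Hspa5 (BiP), the main chaperone of the endoplasmic reticulum, was at 159 to 186 CPM in young meninges and 85.1 to 107 CPM in young choroid plexus (log2 -0.75, -0.83 and -0.74 in CD4, CD8 and neither T cells). In the aged mice it was at 155 to 199 CPM and 135 to 144 CPM (log2 -0.44, -0.41 and -0.18), and the interval of the aged neither class included 0.

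Hspd1 (HSP60), which folds proteins in the mitochondrial matrix, and Hsph1, the exchange factor, had the fewest intervals that excluded 0. Hspd1 was at 85.9 to 129 CPM in the meningeal groups and 76.5 to 103 CPM in the choroid plexus groups, with log2 ratios from -0.57 to 0.17 and 1 of 6 intervals below 0. Hsph1 was at 23.7 to 54.3 CPM in meninges and 10.1 to 34.1 CPM in choroid plexus, on 5 to 70 UMIs per group. It was past 2-fold lower in aged CD4 T cells alone of the 6 pairs (20.8 against 54.3 CPM, log2 -1.06, interval -2.32 to -0.54), and at this depth the other 5 pairs had intervals that included no difference.

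Genes of the early response to activation or handling moved with the tissue as well. The list of 20 such genes (Fos, Jun, Egr1 and others) summed to 4002 to 9528 CPM in the 6 meningeal groups and to 1166 to 2607 CPM in the 6 choroid plexus groups, with at most 2 of its genes at 0 in a group. In the choroid plexus, 11 to 15 of the 16 to 20 tested genes of the list were past 2-fold lower and none was past 2-fold higher, and the median log2 ratio was -1.57 to -1.27. Junb, a member of the AP-1 transcription factor family, differed by -3.80 to -2.53, and Dusp1, a phosphatase that shuts off stress kinases, by -3.69 to -2.73. Ppp1r15a, which restores translation after stress, differed by -2.60 to -1.68. Without thinning, a UMI of Fos or Jun was in 51.5% of young and 38.4% of aged meningeal T cells and in 8.60 and 7.31% of choroid plexus T cells.

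Without the cells that had a Fos or Jun UMI, an alternative chosen after these values were seen, Dnajb1 was still lower in the choroid plexus in 6 of 6 pairs (log2 -1.79 to -0.59), Hspa8 in 6 of 6 (-0.79 to -0.24) and Hspa1b in 6 of 6 (-1.75 to -1.02), while Hsp90ab1 was lower in 5 of 6 (-0.67 to 0.09) and Hspd1 in 3 of 6 (-0.64 to 0.39). The counts past 2-fold lower then went from 3 to 0 in young CD4, 1 to 0 in young CD8, 4 to 2 in aged CD4 and 2 to 1 in aged CD8 T cells, and stayed at 1 in the young and 3 in the aged neither class. Under this setting 1.70 to 5.05% of all genes tested were past 2-fold in either direction over the 6 pairs. Red cell transcripts also moved with the tissue, with a UMI in 5.20 to 23.5% of the cells of meningeal classes and 0 to 1.25% of choroid plexus classes. Without those cells, also chosen after seeing the data, Dnajb1 differed by -1.88 to -0.99 and Hspa8 by -0.78 to -0.35. Choroid plexus epithelial transcripts had a UMI in 0.84 to 2.50% of the cells of choroid plexus classes and were at 0 in meninges. Median mitochondrial shares were 2.39 to 2.43% in meninges and 2.59 to 2.95% in choroid plexus. The part of dissection, digestion or cell state in the tissue difference was not tested, and tissue and library cannot be told apart.

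**Figure D3:**
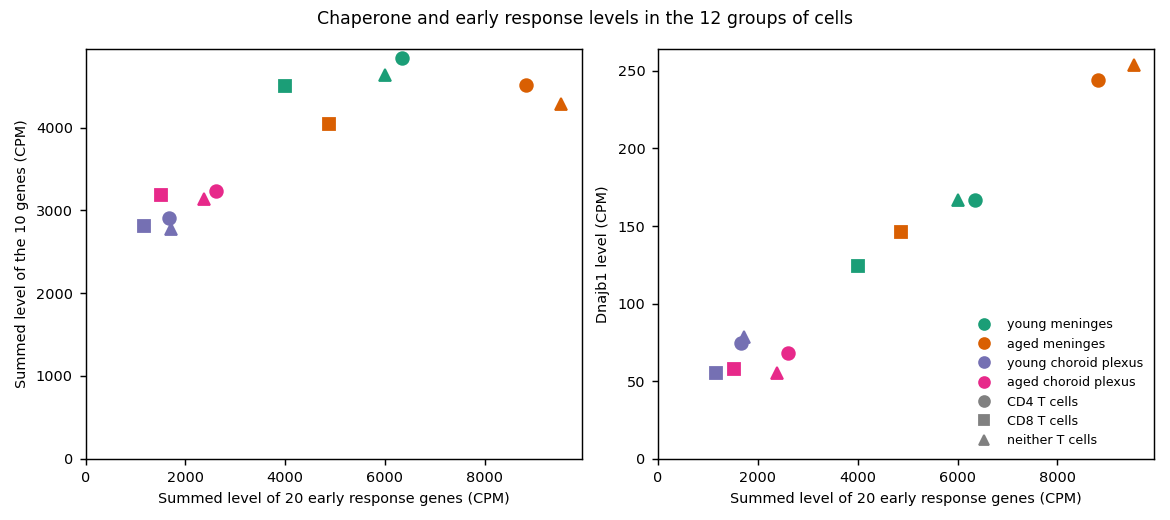
Summed CPM of the 20 early response genes (x axis) against the summed CPM of the 10 heat shock and co-chaperone genes (left) and the CPM of Dnajb1 (right), 1 point per library and T cell class, 12 in all. The 6 choroid plexus groups lie at no more than 2607 CPM on the x axis and the 6 meningeal groups at 4002 CPM or more, and the Dnajb1 levels of the tissues are separate too.

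Lists of other branches of the folding machinery held few genes past 2-fold between the tissues. Of 16 HSP90 co-chaperones, 13 subunits of the cytosolic chaperonin TRiC and prefoldin (of 14 listed) and 14 mitochondrial chaperones and proteases, none of those tested was past 2-fold in any of the 6 pairs, and the medians were -0.25 to -0.02, -0.35 to -0.06 and -0.11 to 0.26. In young CD4, CD8 and neither T cells the HSP90 co-chaperone medians were -0.21, -0.25 and -0.19. Those of TRiC and prefoldin were -0.35, -0.31 and -0.29, against -0.14, -0.07 and -0.10 over all genes. In the aged the medians of these 2 lists were -0.02, -0.11 and -0.02, and -0.10, -0.16 and -0.06. Over all genes they were -0.04, 0.07 and -0.04. Of 36 further HSP70, HSP40 and small heat shock genes, 21 to 29 were tested and none was past 2-fold (medians -0.10 to 0.09). Hspa4, another HSP110-type exchange factor, was lower in the choroid plexus in all 6 pairs without passing 2-fold (-0.79 to -0.25), as were Dnaja2 (-0.61 to -0.08) and Unc45a, an HSP90 co-chaperone (-0.80 to -0.11). Of 30 endoplasmic reticulum and unfolded protein response genes, 20 to 26 were tested and 1 to 3 were past 2-fold lower, with medians of -0.36, -0.18 and -0.16 in young CD4, CD8 and neither T cells and 0.02, 0.01 and 0.04 in the aged. These were Ppp1r15a in all 6 pairs and, in the young neither class, Dnajb9 (-1.30) and P4hb (-1.21), a disulfide isomerase. The most abundant genes of these lists were Pfdn5, Hspe1, Hsp90b1, Selenok, Dnajc15, Cdc37, Ptges3, Cct2, Hsbp1 and Dnajc19.

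The aged and the young libraries were compared within each tissue, which is the aging question of the study. Age differences in the set were small beside the tissue differences. Of 60 values, 44 were higher and 16 lower in aged mice, 46 were under 0.5 in size on the log2 scale, and 27 had an interval that excluded 0 (20 higher, 7 lower). Over all genes tested, 53.7 to 58.4% were higher in the aged in meninges and 64.2 to 73.1% in choroid plexus. The median of the set was 0.17, 0.15 and 0.14 in meningeal CD4, CD8 and neither T cells (0.08, 0.04 and 0.05 over all genes) and 0.18, 0.23 and 0.14 in choroid plexus (0.17, 0.18 and 0.14). In meninges, 0 of 10 genes in CD4 T cells (6.12% of all genes tested were past 2-fold in either direction), 0 of 9 in CD8 T cells (5.06%) and 1 of 10 in the neither class (4.87%) were past 2-fold. In choroid plexus the counts were 0 of 7 in CD4 (9.51%), 1 of 9 in CD8 (3.84%) and 0 of 8 in neither T cells (6.51%). The 2 calls were Hspa1b in the meningeal neither class and Hspa1a in choroid plexus CD8 T cells, both higher in the aged.

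**Figure D4:**
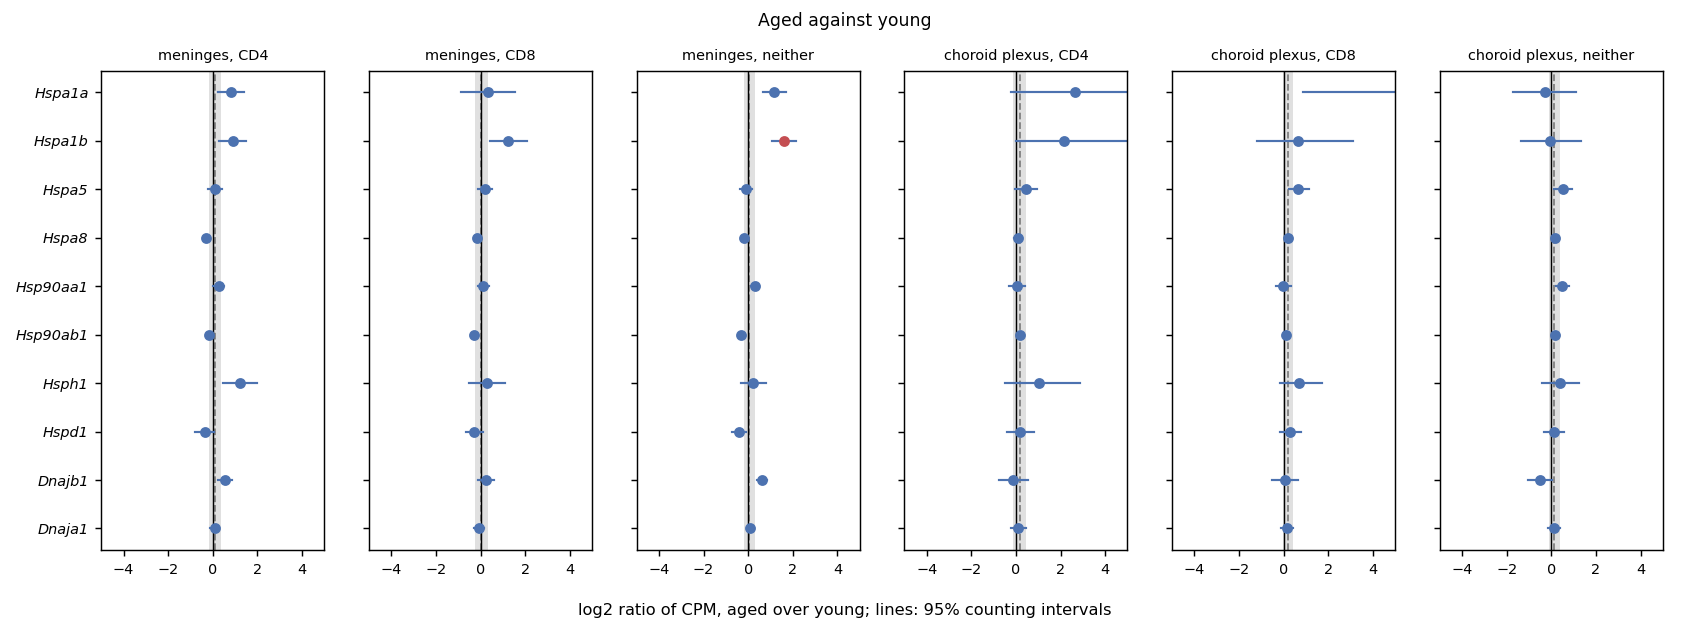
Log2 ratio of CPM, aged over young, for each gene in the 3 T cell classes of the meninges and the choroid plexus, drawn as for the tissues, with red points past 2-fold, intervals that stop at the axis edge and no point where a group was at 0. Hsp90ab1 and Hspa8 lie below 0 in the 3 meningeal panels and above it in the 3 choroid plexus panels.

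For the inducible pair the meningeal ratios were above 0 in every class. The Hspa1a and Hspa1b sum, at the levels given for the tissues, had aged over young log2 ratios of 0.78 in CD4, 0.76 in CD8 and 1.24 in neither T cells, with intervals of 0.44 to 1.26, 0.28 to 1.60 and 1.02 to 1.75. In CD8 T cells 1 aged cell held 15 of the 54 UMIs, all of Hspa1b. Hspa1b in CD8 T cells was at 0.91, and at -0.25 without cells that had a gamma-delta or natural killer UMI, and Hspa1a in CD4 T cells was at 0.69, and at -0.01 in cells without a Ccr7 UMI. Hspa1b in the neither class went from 25.9 CPM in the young to 78.5 CPM in the aged library (39 and 136 UMIs, log2 1.30, interval 1.08 to 2.15). In cells without a Ccr7 UMI this ratio was 0.82, so the call ended. Dnajb1 was higher in aged meningeal CD4 (log2 0.52, interval 0.25 to 0.85) and neither T cells (0.58, 0.38 to 0.84), and the interval in CD8 T cells included 0 (0.22, -0.13 to 0.60). After thinning, a Dnajb1 UMI was in 17.8% of young and 16.3% of aged meningeal CD4 T cells, and in 15.8 and 17.9% of the neither class. The 5% of cells with the most Dnajb1 UMIs held 31.1% of them in young and 43.3% in aged CD4 T cells. In the neither class these shares were 29.5 and 43.9%. The intervals leave out such clustering. Hsph1 was at 23.7 and 54.3 CPM in young and aged meningeal CD4 T cells (21 and 55 UMIs, log2 0.93, interval 0.45 to 1.997). Fos or Jun UMIs were in a smaller share of aged than of young meningeal cells without thinning, but the aged cells held fewer UMIs (medians 2312.5 and 3198). Among meningeal cells without an Hspa1a or Hspa1b UMI, thinned to 1000 UMIs, Fos averaged 0.281 UMIs in aged and 0.152 in young cells. Jun averaged 0.136 and 0.215 UMIs in the same cells. The early response list summed to 4873 to 9528 CPM in aged and 4002 to 6350 CPM in young meninges.

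In choroid plexus the inducible pair rested on few UMIs. Its sum had log2 ratios of 1.34 (3 and 22 UMIs, interval 0.60 to 4.72), 0.98 (3 and 33 UMIs, 0.34 to 4.36) and -0.12 (20 and 22 UMIs, -1.11 to 0.78) in CD4, CD8 and neither T cells. Hspa1a in CD8 T cells had 0 young and 20 aged UMIs, and 1 aged cell held 8 of the 20. Set against the limit of 3 UMIs it was 2.44-fold higher in the aged, a value that leaves out the counting error of the 20 UMIs. With exactly the minimum of 20 UMIs, Hspa1a was no longer called when cells with a Fos or Jun, Ccr7 or B cell or myeloid UMI were left out. Hspa5 was higher in aged choroid plexus in all classes (log2 0.40, 0.61 and 0.47), and the intervals of CD8 and neither T cells lay above 0. In meninges the Hspa5 ratios were 0.09, 0.19 and -0.10 and all 3 intervals included 0.

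Hsp90ab1 and Hspa8 were lower in aged meninges, while their values in aged choroid plexus were near those of all genes. Hsp90ab1 was lower in aged meninges (log2 -0.18, -0.29 and -0.34 in CD4, CD8 and neither T cells) and higher in aged choroid plexus (0.18, 0.12 and 0.16), and all 6 intervals excluded 0. Hspa8 gave -0.33, -0.17 and -0.19 in meninges and 0.09, 0.20 and 0.18 in choroid plexus, where the interval of CD4 T cells included 0. Hspd1 gave -0.33, -0.26 and -0.37 in meninges and 0.17, 0.27 and 0.12 in choroid plexus, with 1 of its 6 intervals excluding 0. Median ratios over all genes tested were 0.04 to 0.08 in meninges and 0.14 to 0.18 in choroid plexus. Centred on the median of each comparison, Hsp90ab1 was at -0.26, -0.33 and -0.39 in meninges and 0.01, -0.06 and 0.02 in choroid plexus, and Hspa8 at -0.41, -0.21 and -0.24 in meninges and -0.08, 0.02 and 0.04 in choroid plexus.

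Beside these, the HSP90 co-chaperone, TRiC and prefoldin, and mitochondrial lists had no gene past 2-fold with age in any class of either tissue. Of all genes tested, 3.84 to 9.51% were past 2-fold in either direction. The HSP70, HSP40 and small heat shock list had 1 gene past 2-fold higher in meningeal neither and 1 in choroid plexus CD4 T cells. The endoplasmic reticulum list had 1 in choroid plexus neither T cells. Its medians were 0.48, 0.27 and 0.23 in choroid plexus CD4, CD8 and neither T cells, against 0.17, 0.18 and 0.14 over all genes. In meninges they were 0.05, 0.17 and 0.06, against 0.08, 0.04 and 0.05. Hspb11, in the list of small heat shock genes by its name and known as a ciliary transport subunit, was lower in the aged in all 6 comparisons (log2 -1.19 to -0.88) and past 2-fold in 3. Of the early response list, Rgs1, a brake on chemokine receptor signalling, was past 2-fold higher in the aged in all 6 (1.27 to 1.70), and Ier3, an immediate early gene, was so in CD8 T cells of both tissues (1.65 in meninges and 1.90 in choroid plexus).

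CD8 and CD4 T cells were compared within each library. In young meninges 1 of 10 genes was past 2-fold (2.84% of all genes tested), in aged meninges 1 of 10 (4.54%), in young choroid plexus 0 of 7 (3.62%) and in aged choroid plexus 0 of 8 (3.92%). The gene was Hspa1a both times. It was at 12.3 CPM in CD8 and 44.0 CPM in CD4 T cells of young meninges (log2 -1.28, interval -2.87 to -0.90) and at 15.5 and 77.0 CPM in aged meninges (log2 -1.77, interval -3.25 to -1.48). Hspa1b was lower in CD8 T cells too, by -0.81 in young and -0.65 in aged meninges. The sum of the pair was at 31.2 and 84.6 CPM in CD8 and CD4 T cells of young meninges and at 59.7 and 152 CPM in aged meninges. That sum was past 2-fold in 2 of the 4 libraries, with a lowest log2 ratio of -1.22. Dnajb1 was lower in CD8 T cells as well, by -0.40 in young and -0.70 in aged meninges, and both intervals lay below 0. In choroid plexus the Dnajb1 ratios of -0.37 and -0.20 had intervals that included 0. Hspd1 was higher in CD8 T cells in all 4 libraries (0.11 to 0.27), and each interval included 0. Without cells that had a Fos or Jun UMI, no gene was past 2-fold in either meningeal library. The early response list had 1 to 5 genes past 2-fold lower in CD8 T cells of the 4 libraries and 1 higher (Ier3, in aged choroid plexus), and its part was not tested.

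The inducible pair was detected in few cells, with up to 16 UMIs in 1 cell. After thinning, an Hspa1a or Hspa1b UMI was found in 0.63 to 1.12% of the cells of young choroid plexus classes, 1.07 to 3.49% in aged choroid plexus, 2.76 to 5.53% in young meninges and 3.28 to 8.99% in aged meninges. In meninges, cells with one gene of the pair had the other more often than the remaining cells did. In aged meninges 27.0% of the 63 cells with Hspa1a also had Hspa1b, against 3.21% of the other cells, and in young meninges the shares were 19.0% of 21 cells and 1.94%. In aged choroid plexus they were 8.33% (1 of 12 cells) and 1.13%, and in young choroid plexus 0 of 2 cells and 0.50%. A read in a stretch that both transcripts share cannot be assigned to one of the genes, and the part of such reads in this was not tested.

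Cells with an Hspa1a or Hspa1b UMI were set against the other T cells of their library at 1000 UMIs each, as a description of single cells that share a library. Among 979 genes with at least 0.05 UMIs per cell, Dnajb1 had the highest ratio, with a geometric mean of 4.19 over the 4 libraries. It was 2.70 (interval 1.56 to 4.40) in young meninges with 40 such cells, 3.41 (2.57 to 4.47) in aged meninges with 105 cells, 8.74 (4.42 to 16.0) in aged choroid plexus with 24 cells, and rested on 1 UMI in the 5 cells of young choroid plexus. Anxa2 (2.42), Mob4 (2.34), Junb (2.34) and Cd6 (2.32) followed, with lowest ratios in a library of 1.29, 1.52, 1.65 and 1.08. The early response list was higher in these cells too. Its ratio was 1.55 (1.39 to 1.72) in young and 1.76 (1.67 to 1.86) in aged meninges. It was 2.01 (1.64 to 2.44) in aged and 1.61 (0.854 to 2.77) in young choroid plexus. Fos was not among the ranked genes. Its ratio was 2.46 (1.34 to 4.198) in young and 1.997 (1.49 to 2.64) in aged meninges. The part of this response in the Dnajb1 ratio was not tested. Hsp90aa1 was at 2.50 (1.58 to 3.78) in young and 2.73 (2.13 to 3.48) in aged meninges, at 0.763 (0.206 to 1.98) in aged choroid plexus and at 1.40 on 1 UMI in young choroid plexus. In meninges Hspa8 was at 1.496 (1.203 to 1.84) in the young and 1.55 (1.33 to 1.79) in the aged, Hsp90ab1 at 1.39 (1.12 to 1.72) and 1.28 (1.10 to 1.48), and Dnaja1 at 1.19 (0.697 to 1.91) and 1.69 (1.28 to 2.19). In aged choroid plexus Hspa8 was at 1.31 (0.896 to 1.85), Hsp90ab1 at 1.06 (0.712 to 1.52) and Dnaja1 at 0.866 (0.315 to 1.91), with intervals that included 1. The ratios of these genes in young choroid plexus rest on 1 to 4 UMIs in 5 cells, and the means over all 4 libraries include them. The geometric means were 1.29 for Hspa8 (rank 264), 1.09 for Dnaja1 (rank 512) and 1.09 for Hsp90ab1 (rank 517), against a median of 1.10 over the ranked genes. Hspd1, with 0 UMIs in the 5 such cells of young choroid plexus, and Hsph1 were not among the ranked genes.

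**Figure D5:**
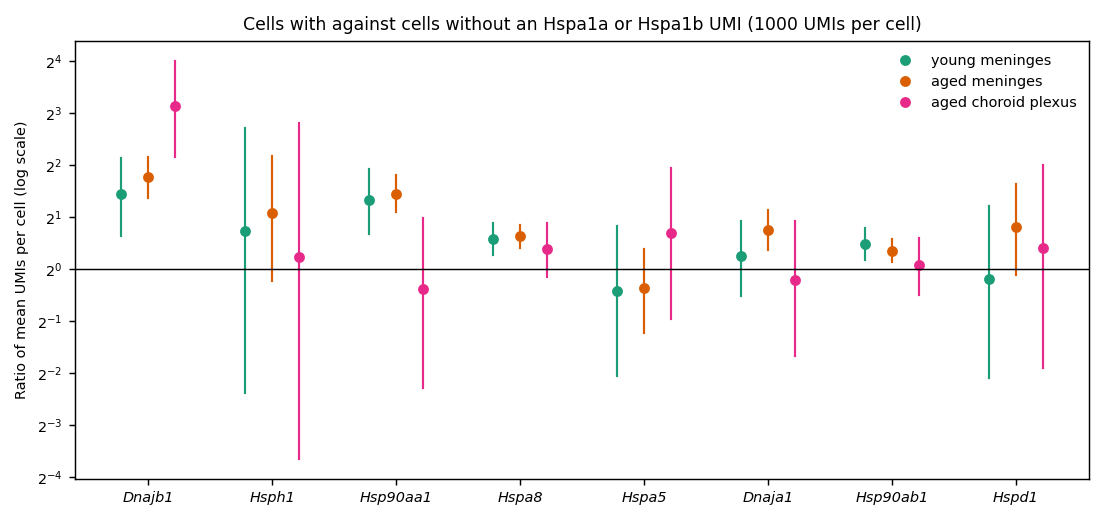
Ratio of mean UMIs per cell (log scale, base 2) of the other 8 genes in cells with against cells without an Hspa1a or Hspa1b UMI, each cell thinned to 1000 UMIs, with 95% counting intervals as lines. Young choroid plexus, with 5 such cells, is left out, and the intervals of Dnajb1 lie above 1 in the 3 libraries shown.

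Ccr7 marks naive and central memory T cells, whose share fell with age in these libraries as measured by a list of naive cell markers (a UMI in 76.2 to 92.5% of the cells of young classes and 35.0 to 52.2% of aged ones). Within young meninges, T cells with a Ccr7 UMI had less of the inducible pair than those without (log2 -0.90, interval -1.49 to -0.64) and in aged meninges too (-0.54, -1.11 to -0.12), whereas the intervals in young (0.11, -1.002 to 1.45) and aged choroid plexus (0.30, -0.56 to 1.29) included 0. Over all genes tested the median ratio was -0.15 in young and -0.28 in aged meninges and -0.10 and -0.23 in choroid plexus, and 3.45, 4.89, 3.05 and 2.38% were past 2-fold. Hspa8 and Hsp90ab1 were lower with Ccr7 in young meninges (-0.18 and -0.17) and higher in aged meninges (0.25 and 0.25), and all 4 intervals excluded 0. Dnajb1 differed by 0.10 and 0.07 there, with intervals that included 0. In aged choroid plexus Dnajb1 was lower in cells with Ccr7 (-0.77, interval -1.81 to -0.19) and Hspa1a higher (0.80, 0.20 to 2.38). None of these besides Hspa1a in young meninges (-1.24) was past 2-fold.

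Across the 12 groups of library and class, which share libraries and so are not independent, the levels of some genes of the set went together. Pearson's r of log2 (CPM + 10) was 0.94 between Dnajb1 and Dnaja1, 0.90 between Dnajb1 and Hsp90aa1, 0.92 between Hspa1b and Dnajb1, and 0.96 between Hspa8 and Hsp90ab1. Hspd1 went least with the stress-inducible genes, at 0.17 with Hspa1a, 0.16 with Hspa1b and 0.21 with Dnajb1. Among 2492 genes with a mean of at least 50 CPM, those most like the inducible pair over the 12 groups were Tnfaip3, Nfkbia, Gadd45b, Dusp1 and Nfkbid (r 0.94 to 0.95). Hspa5 was most like Zap70 (0.93) and Mdh2 (0.93), Hsp90ab1 most like Hspa8 (0.96) and Gpi1 (0.92), and Hspd1 most like the TRiC subunits Cct4 (0.87) and Cct2 (0.85).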

How the data were processed

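Values were raw UMI counts per gene and cell, deposited by the authors for 4 libraries sequenced on a NextSeq 500, with no normalization. The file headers name Cell Ranger 3.1.0, and the submitters' processing notes name Cell Ranger 5.1.0, STAR and the genome build mm10. Cells with 200 to 7000 genes and at most 5% mitochondrial UMIs were kept, as in the study's methods. Doublets called by Scrublet (scanpy 1.11.5, automatic threshold) were removed, 0 to 22 per library, in place of the DoubletFinder step of the authors. Library pairs shared 0 to 3 cell barcodes. Between 2031304 and 3793034 UMIs per library remained in T cells, and 16 to 33 cells per library with both co-receptors were left out. UMIs were summed per library and class and scaled to CPM. Ratios were the log2 of (CPM + 10), with exact conditional binomial 95% intervals of the plain ratio, Poisson intervals for levels and Clopper-Pearson intervals for shares (SciPy 1.17.1). Genes were tested where the higher group had at least 20 UMIs. No p-value was computed, since each group is 1 library. The rule and the intervals were tried on simulated independent Poisson counts. That simulation held no clustering of UMIs in cells and no spread between mice, so it cannot show how the intervals do under either. Gene models were those of GENCODE vM21, in which 30934 of 31053 IDs were found.

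The 10 genes, the 6 comparison lists and the markers were chosen with earlier results of these data known. Named beyond the 10 genes were list members past 2-fold with age in both tissues, the 2 most abundant of each list, the top genes of the likeness and single-cell rankings, and others chosen after their values were seen (Ppp1r15a, Dnajb9, P4hb, Hspa4, Dnaja2, Unc45a, Hspb11, Dusp1, Fos, Jun, Egr1). Alternatives were the pseudocount, thinning, scaling, cell filters, fold and count limits, and leaving out cells with markers of other states.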

Additional observations from a re-analysis of the deposited data

Results flagged for a closer look

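Hspa8 and Hsp90ab1 differed with age in opposite directions in the 2 tissues, with counting intervals that excluded 0 in both for the 5 comparisons given here. In CD4 T cells the Hspa8 interval in choroid plexus included 0. On the log2 scale, aged over young, Hsp90ab1 was at -0.1777 in meninges and 0.1850 in choroid plexus for CD4 T cells, at -0.2937 and 0.1197 for CD8 T cells and at -0.3415 and 0.1561 for the neither class. Hspa8 was at -0.1688 and 0.2025 for CD8 T cells and at -0.1886 and 0.1769 for the neither class. The difference between the tissues was not tested, since each group was 1 library. Every one of these values is under 0.35 in size, and centred on the median gene of its comparison Hsp90ab1 in choroid plexus was at 0.01, -0.06 and 0.02 in CD4, CD8 and neither T cells and Hspa8 at 0.02 and 0.04 in CD8 and neither T cells, so the opposite directions depend on the scaling.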

How the results depend on the processing

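The counts of the 10 genes past 2-fold are small, and 1 call can move them. With a pseudocount of 1 CPM, the count for aged over young meninges went from 0 to 1 in CD4, 0 to 1 in CD8 and 1 to 2 in neither T cells, that for the young tissues from 1 to 2 in CD8 and 1 to 3 in neither, and that for CD8 over CD4 T cells in young meninges from 1 to 2. With cells thinned to 1000 UMIs before summing, meninges by age in neither T cells gave 2, the young tissues 1 in CD4 and 2 in CD8, the aged tissues 1 in CD8, and CD8 over CD4 0 in young meninges, 1 in young choroid plexus and 2 in aged meninges. Means of per-cell CPM gave 3 for the young tissues in CD8 T cells. Scaling without ribosomal protein, mitochondrial, receptor and immunoglobulin genes gave 2 there and 0 in neither T cells, and centring on the median gene gave 0 and 0, with 0 for choroid plexus by age in CD8 T cells. With no limits on cells, meninges by age in CD4 T cells gave 1 and the young tissues in CD8 gave 2. With a pseudocount of 1 CPM, the share of all genes past 2-fold was 4.45 to 14.1%. For meninges by age it was then 11.1, 10.5 and 10.6% in CD4, CD8 and neither T cells. The share was 3.51 to 14.4% with thinning and 1.53 to 10.7% with means of per-cell CPM. It was 2.22 to 10.4% with the reduced scaling, 1.37 to 8.34% when centred and 1.40 to 8.59% with no limits on cells.

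Without the 5% of cells with the highest doublet score, meninges by age in CD4 gave 1, choroid plexus by age in CD8 gave 0, the young tissues 0 in CD8 and 0 in neither, and CD8 over CD4 in aged meninges 2. Without Ccr7 cells, meninges by age gave 1 in CD8 and 0 in neither, choroid plexus by age 0 in CD8, and the young tissues 1 in CD4, 0 in CD8 and 2 in neither. Without cycling cells, choroid plexus by age in CD8 gave 0. Without cells with a B cell or myeloid UMI the counts were 1 (meninges by age, CD4), 0 (choroid plexus by age, CD8), 2 and 0 (young tissues, CD8 and neither) and 2 (CD8 over CD4, aged meninges). Without gamma-delta or natural killer cells they were 2 (meninges by age, neither), 0 (choroid plexus by age, CD8), 1 (aged tissues, CD8) and 2 (CD8 over CD4, aged meninges). Of all genes tested, 1.61 to 9.98% were past 2-fold without the high doublet scores and 1.63 to 11.5% without Ccr7 cells. The shares were 1.44 to 10.7% without cycling cells and 1.56 to 11.3% without B cell or myeloid UMIs. Without gamma-delta or natural killer cells they were 1.95 to 9.76%.

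At 1.5-fold, meninges by age gave 3, 1 and 2, choroid plexus by age in CD8 gave 2, the young tissues 7, 5 and 8, and CD8 over CD4 2 in young and 4 in aged meninges, where 7.01 to 25.04% of all genes tested were past 1.5-fold over the 16 comparisons. With at least 100 UMIs in the higher group, choroid plexus by age in CD8 gave 0, the tissues 1 in young CD4, 1 in aged CD4 and 1 in aged CD8, and CD8 over CD4 0 in both meningeal libraries. In the 2 alternatives chosen after seeing the data, leaving out cells with a Fos or Jun UMI gave 1 and 0 for meninges by age (CD4 and neither), 0 for choroid plexus by age in CD8, 0 and 0 for the young tissues (CD4 and CD8), 2 and 1 for the aged tissues (CD4 and CD8) and 0 for CD8 over CD4 in both meningeal libraries. Leaving out cells with a red cell UMI gave 1 and 1 for meninges by age (CD4 and CD8) and 0 for the young tissues in neither T cells. Over the 16 comparisons, 1.90 to 9.84% of all genes tested were past 2-fold with the limit of 100 UMIs. The shares were 1.70 to 9.93% without Fos or Jun cells and 1.75 to 9.13% without red cell UMIs. No other count moved by more than 1.5 times. The causes of these changes were not tested.

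Between the tissues, Dnajb1, Hspa8, Hspa5, Hsp90aa1 and Dnaja1 were lower in the choroid plexus in all 6 pairs under all 13 alternatives that give a ratio of their own. Single directions with an interval off 0 that turned were Hspa1a with age in meningeal CD4 T cells (-0.01 without Ccr7 cells), Hspa1b with age in meningeal CD8 T cells (-0.25 without gamma-delta or natural killer cells), Hsp90ab1 with age in choroid plexus CD8 T cells (-0.06 when centred), Hsp90ab1 between the aged tissues in CD4 T cells (0.09 without Fos or Jun cells) and Dnaja1 between CD8 and CD4 T cells of aged meninges (0.02 when thinned). No replicate could be left out, because each group is 1 library, and no paired analysis was possible because the groups hold 1 library each. Hspa1a, Hspa1b and Hsph1 rest on 0 to 136 UMIs per group, which limits what their ratios can show.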
